A study of Homo sapiens with 8 samples.

Results

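The Notch pathway is described here through 10 genes: the receptors NOTCH1, NOTCH2 and NOTCH3, the ligands JAG1, JAG2 and DLL1, the coactivator MAML2 and the target genes HES1, HEY1 and HEY2. They are 10 of 19775 genes measured and were chosen by name, with earlier results of these data known. Counts of calls among them are therefore a description. A probe set is a group of array probes read as one value, and 27 probe sets carried the symbol of exactly 1 of the 10 genes. Each gene was read by its probe set with the highest mean over the 8 arrays, and the 17 other probe sets are given beside it.

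The cells were MDA-MB-453, a human breast cancer line with luminal features, grown as a bulk culture. Before treatment every culture spent 3 days without phenol red in 5% serum that had been stripped with charcoal, a medium poor in steroids. One group then received vehicle, and the others received 10 nM DHT (5α-dihydrotestosterone, a potent androgen) for 4, 16 or 48 h. Each of the 4 groups had 2 arrays, labelled as biological replicates of this 1 cell line, so the p-values measure the spread between these samples. No time is labelled for vehicle, so DHT and time in culture cannot be told apart.

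Notch receptors sit in the cell membrane and are cut after they bind a ligand on a neighbouring cell. The freed inner part enters the nucleus, joins the DNA-binding protein RBPJ and a Mastermind coactivator, and switches on target genes, of which the HES and HEY transcriptional repressors are the best known. In the mammary gland the pathway is known for its part in the commitment of progenitor cells to the luminal lineage.

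RBPJ reads short DNA words around its core TGGGAA, and 3 promoter windows are shown to place target genes and the ligand with the largest change at 16 h beside that word. RefSeq windows (GRCh38.p14, 250 bases before to 50 bases after the gene start) were read for 8 of the 10 genes. Windows of HEY1 and DLL1 were not read, so the counts below do not cover these genes. Capitals mark TGGGAA on either strand (TTCCCA is its reverse). The HES1 window lies at chr3:194135898-194136197 on the plus strand, the HEY2 window at chr6:125749382-125749681 on the plus strand and the JAG1 window at chr20:10673950-10674249 on the minus strand.
HES1: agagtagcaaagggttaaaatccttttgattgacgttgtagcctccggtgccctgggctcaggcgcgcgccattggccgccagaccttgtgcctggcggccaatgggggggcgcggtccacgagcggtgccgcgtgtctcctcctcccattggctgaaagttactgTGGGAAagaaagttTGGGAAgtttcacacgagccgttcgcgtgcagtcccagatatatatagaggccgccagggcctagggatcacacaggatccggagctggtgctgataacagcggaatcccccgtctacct
HEY2: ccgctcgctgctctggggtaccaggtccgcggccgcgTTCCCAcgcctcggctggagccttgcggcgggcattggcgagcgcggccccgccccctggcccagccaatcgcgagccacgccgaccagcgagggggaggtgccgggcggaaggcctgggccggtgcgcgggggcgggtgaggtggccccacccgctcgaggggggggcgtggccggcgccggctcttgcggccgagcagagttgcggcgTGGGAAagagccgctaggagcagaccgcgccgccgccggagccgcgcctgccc
JAG1: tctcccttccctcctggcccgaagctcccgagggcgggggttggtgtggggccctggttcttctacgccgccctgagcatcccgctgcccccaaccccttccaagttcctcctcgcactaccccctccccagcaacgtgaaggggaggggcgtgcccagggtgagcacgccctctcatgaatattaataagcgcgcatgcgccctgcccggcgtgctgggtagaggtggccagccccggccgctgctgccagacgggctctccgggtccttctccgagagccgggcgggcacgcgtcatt

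HES1 and HEY2 were the 2 of 8 genes with the word in these windows, and each held 2 copies. In HES1 the copies began at positions -84 and -70 from the gene start, both on the gene's own strand. In HEY2 they began at -213 on the opposite strand and at -3 on the gene's strand. Of all 35116 promoter windows of this length, those on chromosome 8 included, 24% held at least 1 copy and 3.8% held 2 or more. The longer form GTGGGAA, which contains the core, was present in 6.25% of the windows. AGAACA, a half-site to which the androgen receptor can bind, searched on both strands, was in 0 of the 8 windows and in 14.8% of all of them. A match is only a match of letters, and the lack of one says only that these letters are not in these windows.

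Values are log2 signals as deposited, so a difference of 1 is a doubling, and signals are compared between groups for 1 probe set at a time. A gene was called when its Benjamini-Hochberg adjusted p, taken over all 19775 genes in limma, was below 0.05. Median signals per array lay between 7.59 and 7.63. The luminal genes FOXA1, SPDEF, KRT8, KRT18 and KRT19 had signals from 11.64 to 14.21, while the estrogen receptor gene ESR1 stayed between 8.23 and 8.62, and the androgen receptor gene is not analysed here. The 8 measured markers of basal, mesenchymal, and immune and endothelial cells had signals between 5.7 and 9.42. Their mean per array was 7.89 to 7.94 in vehicle, 7.89 to 7.97 at 4 h, 7.89 at 16 h and 7.95 to 8.03 at 48 h. Of these markers 0 were called by limma at 4 h, 0 at 16 h and 1 at 48 h, the basal keratin KRT5 (log2 change 0.51, adjusted p = 0.00666), and its part in the results below was not tested. Of the luminal genes, limma called SPDEF higher at 16 h (0.41, adjusted p = 0.033), KRT19 higher at 16 h (0.58, adjusted p = 0.00295) and 48 h (0.68, adjusted p = 0.000679), and FOXA1 lower at 48 h (-0.72, adjusted p = 0.000638). Their part was not tested either. In a bulk culture, fewer cells that make an RNA and less of it per cell cannot be told apart. DHT 16 h replicate 2 stood apart from the other arrays, with a 3′ minus 5′ difference of 1.52 log2 units in the ACTB control against 0.203 to 0.945. The 0.945 was that of DHT 48 h replicate 2. In the GAPDH control DHT 16 h replicate 2 had 0.817, against 0.185 to 0.349 on the other arrays, with 0.319 in DHT 48 h replicate 2. The 16 h values against vehicle are therefore also given without DHT 16 h replicate 2.

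The main change lay in the ligands. JAG1 was 2.25-fold and DLL1 2.44-fold lower at 48 h than in vehicle, JAG2 moved slightly the other way without a call, and the receptors, the coactivator and the HES and HEY genes were not called at any time. At 4 h limma called 0 of the 10 genes, against 0.177% of all genes, and 1 of the 10 had an unadjusted p below 0.05, against 7.84% of all genes. At 16 h it called 2 of 10, both lower, against 6.85% of all genes in either direction and 4.3% lower. At 48 h the same 2 genes of 10 were called lower, against 9.51% of all genes in either direction and 6.38% lower. An unadjusted limma p below 0.05 was found for 4 of the 10 at 16 h and 4 at 48 h, against 19.9% and 22% of all genes. The median log2 change of the 10 genes was 0.02 at 4 h, -0.04 at 16 h and -0.02 at 48 h, and that of all genes was 0.00, 0.02 and 0.01. The 3 comparisons with vehicle share the same 2 vehicle arrays.

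**Figure D1:**
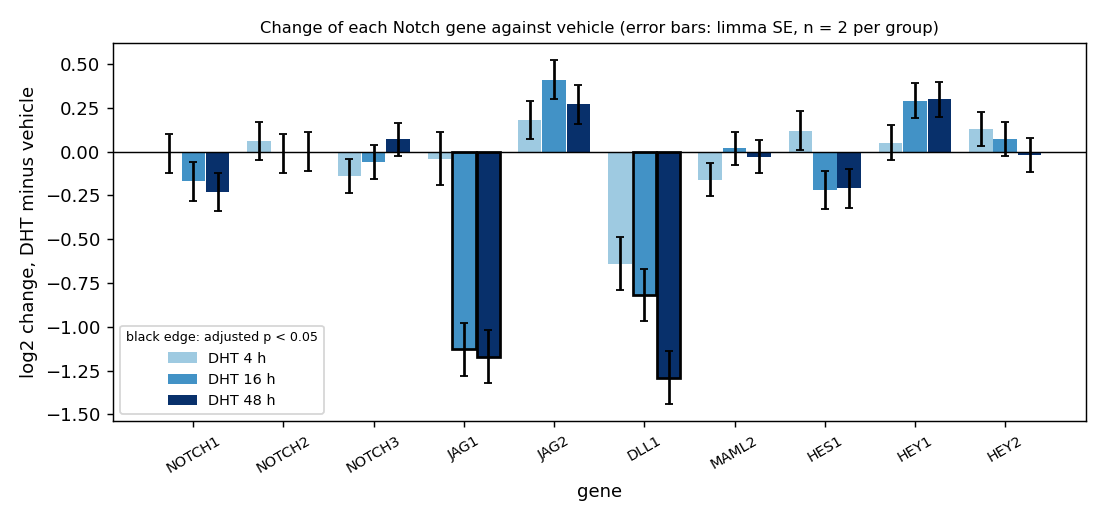
Log2 change of each gene against vehicle (vertical axis, DHT minus vehicle) after 4, 16 and 48 h of DHT, as bars with limma standard errors (n = 2 per group). Only the JAG1 and DLL1 bars at 16 and 48 h carry the black edge of an adjusted p below 0.05. JAG1 stands at -0.04, -1.13 and -1.17, and DLL1 at -0.64, -0.82 and -1.29.

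JAG1 encodes Jagged1, a membrane-bound ligand that activates Notch receptors on the next cell. Its log2 signal was 10.42 and 10.05 in vehicle, 10.18 and 10.21 at 4 h, 8.99 and 9.22 at 16 h, and 8.89 and 9.24 at 48 h. The 4 h arrays lay within the vehicle range, and all 4 later arrays lay below every vehicle and 4 h array. JAG1 averaged 9.11 ± 0.16 at 16 h and 10.24 ± 0.26 in vehicle (SD, n = 2 each), a log2 change of -1.13 ± 0.15 (SE, limma adjusted p = 0.000807). Against vehicle the gene was thus 2.19-fold lower at 16 h, and it was 2.25-fold lower at 48 h (log2 change -1.17 ± 0.15, limma adjusted p = 0.000378). At 4 h the log2 change was -0.04, with a 95% interval from -0.36 to 0.28 and no call. JAG1 was the 1 of 10 genes called between 4 and 16 h, at -1.09 ± 0.15 (limma adjusted p = 0.0018), in a comparison that called 3.05% of all genes, 1.77% lower. Between 16 and 48 h its log2 change was -0.04 (95% interval -0.36 to 0.28), where limma called 0 of the 10, against 0.829% of all genes. In that comparison 1 of the 10 had an unadjusted p below 0.05, against 10.7% of all genes. The JAG1 calls at 16 and 48 h held in all 17 alternative fits, 1 of which could not change its probe set because all 6 carry the endings _x_at or _s_at, given to probe sets that may read more than 1 transcript. Without DHT 16 h replicate 2 the value was -1.24 at 16 h against vehicle, -1.2 against 4 h, and 0.07 for 48 h against 16 h.

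The 6 JAG1 probe sets did not all move. With each of the 54613 probe sets fitted and adjusted as a feature of its own, 3 of the 6 were called lower at 16 h and 4 at 48 h. Besides the one used, the probe set with a mean signal of 9.52 changed by -1.18 at 16 h and -1.16 at 48 h. The one at 8.57 changed by -1.66 and -1.35, and the one at 7.64 had -0.70 with no call at 16 h and changed by -0.98 at 48 h. The last 2, with mean signals of 7.60 and 6.90, had 0.06 and 0.01 at 16 h and 0.15 and -0.01 at 48 h. Taking the mean of all 6 probe sets gave -0.77 at 16 h and -0.75 at 48 h, both still called.

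DLL1 encodes Delta-like 1, a ligand of the other structural family. Its signal was 8.88 and 8.75 in vehicle, 8.17 and 8.19 at 4 h, 7.73 and 8.27 at 16 h, and 7.43 and 7.64 at 48 h. All 6 DHT arrays lay below both vehicle arrays, the 16 h arrays spanned the 4 h ones, and the 48 h arrays were the lowest. At 4 h the log2 change was -0.64 ± 0.15, the 46th largest in size among 19775 genes, with no call (limma adjusted p = 0.208). DLL1 was 1.77-fold lower at 16 h than in vehicle, a log2 change of -0.82 ± 0.15 (limma adjusted p = 0.00727). At 48 h it averaged 7.53 ± 0.15 against 8.82 ± 0.093 in vehicle (SD, n = 2 each) and was 2.44-fold lower, a log2 change of -1.29 ± 0.15 (limma adjusted p = 0.00025). From 4 to 16 h the change was -0.18, and from 16 to 48 h it was -0.46, with a 95% interval from -0.80 to -0.13 and no call (limma adjusted p = 0.251).

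The 48 h call of DLL1 held in all 17 alternative fits, of which the one outside the _x_at and _s_at kinds had no other DLL1 probe set to read. Its 16 h call was lost without vehicle replicate 1 (-0.76, limma adjusted p = 0.0781), while without DHT 16 h replicate 2 the value was -1.09 against vehicle, -0.45 against 4 h and -0.19 for 48 h against 16 h, the last 2 with no call. The second DLL1 probe set, with a mean signal of 7.17, changed by 0.06, -0.16 and 0.13 at 4, 16 and 48 h and was not called, and the mean of both probe sets gave -0.49 at 16 h and -0.58 at 48 h.

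JAG2, the other Jagged ligand, had signals of 11.20 and 11.28 in vehicle, 11.33 and 11.52 at 4 h, 11.52 and 11.80 at 16 h, and 11.50 and 11.52 at 48 h. Every DHT array lay above both vehicle arrays. Its log2 change at 16 h was 0.41 ± 0.11 with a 95% interval from 0.17 to 0.66, just outside the threshold (limma adjusted p = 0.0509). At 48 h it was 0.27 ± 0.11 (limma adjusted p = 0.184). Its second probe set had 0.22, 0.40 and 0.30 at 4, 16 and 48 h, also with no call. The 16 h value passed the threshold in 7 of the 17 alternative fits and was 0.27 without DHT 16 h replicate 2 (limma adjusted p = 0.274).

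**Figure D2:**
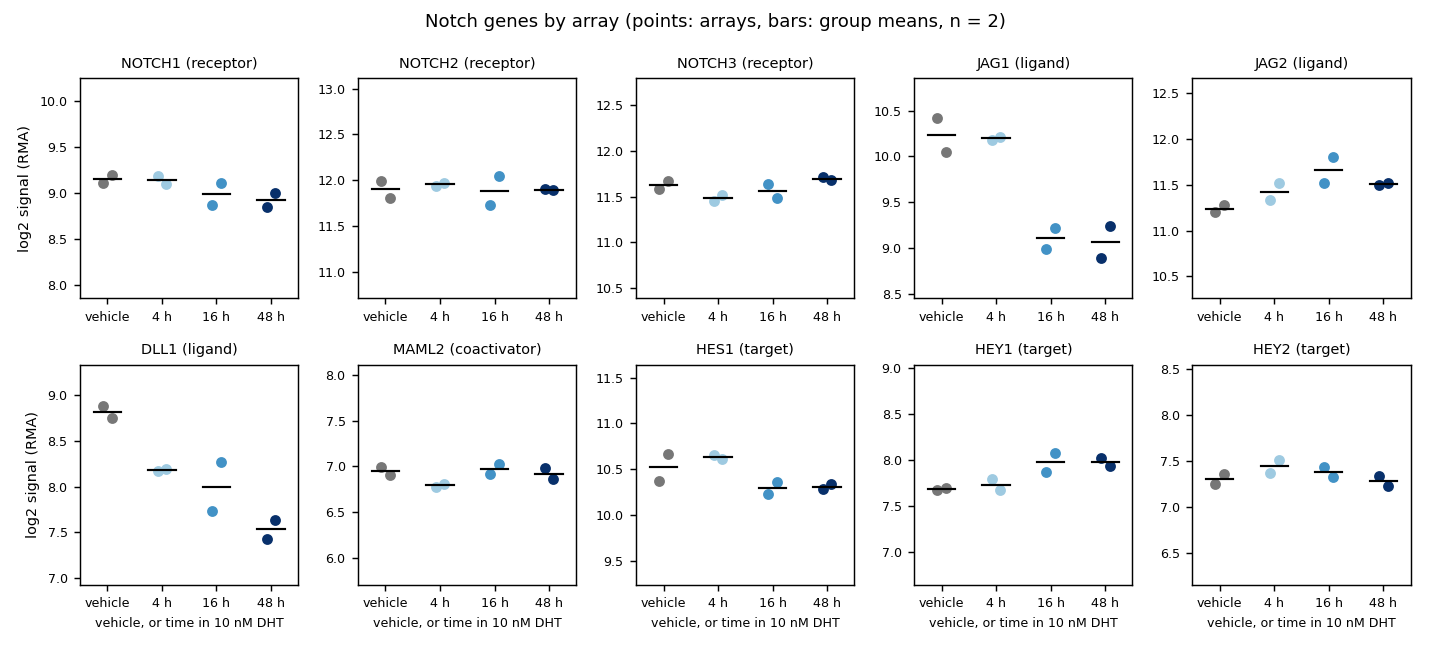
Log2 signal (vertical axis, spanning the same range of log2 units in each panel) of the 10 genes on each array, with vehicle and then DHT times from left to right. Points are arrays and bars are group means (n = 2). JAG1 is near 10 in vehicle and at 4 h and near 9 at 16 and 48 h, and DLL1 is lower in every DHT array than in both vehicle arrays.

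The receptors differed little. NOTCH1 had signals of 9.11 and 9.20 in vehicle, 9.18 and 9.10 at 4 h, 8.87 and 9.11 at 16 h, and 8.85 and 9.0 at 48 h. Its 48 h arrays lay below both vehicle arrays, and the log2 change of -0.23 ± 0.11 was not called (limma adjusted p = 0.239). Its second probe set read 0.09 at 48 h. At 16 h the change was -0.17, and -0.29 without DHT 16 h replicate 2, with no call in either fit.

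NOTCH2 gave 11.99 and 11.81 in vehicle, 11.94 and 11.97 at 4 h, 11.73 and 12.04 at 16 h, and 11.90 and 11.89 at 48 h. Each DHT group overlapped vehicle, and its log2 changes were 0.06, -0.01 and 0.00 at 4, 16 and 48 h. The 95% interval at 48 h reached from -0.25 to 0.25, and without DHT 16 h replicate 2 the 16 h value was -0.17 with no call. NOTCH2 has near-identical partial copies, the NOTCH2NL genes, so its probe sets may also read them. Of its 3 other probe sets, the one with a mean signal of 11.27 read 10.57 in DHT 16 h replicate 2 and between 11.23 and 11.57 on the other arrays, and the largest change of the 3 in either direction was -0.33 at 16 h.

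NOTCH3 gave 11.58 and 11.67 in vehicle, 11.45 and 11.52 at 4 h, 11.64 and 11.49 at 16 h, and 11.71 and 11.68 at 48 h. Its log2 changes were -0.14, -0.06 and 0.07 at 4, 16 and 48 h, with limma adjusted p from 0.743 to 0.786. Without DHT 16 h replicate 2 the 16 h value was 0.01. Its second probe set read 0.29, 0.10 and 0.07. In the fit over all probe sets the 8 receptor probe sets had limma adjusted p of 0.361 or more against vehicle.

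MAML2, a Mastermind coactivator that joins the Notch inner domain and RBPJ on DNA, was dim, with signals of 6.99 and 6.91 in vehicle, 6.78 and 6.81 at 4 h, 6.92 and 7.03 at 16 h, and 6.98 and 6.86 at 48 h. Both 4 h arrays lay below both vehicle arrays, at a log2 change of -0.16 with no call, and the later arrays overlapped vehicle. At 16 h the change was 0.02, and -0.03 without DHT 16 h replicate 2. A second probe set read -0.05, 0.15 and 0.21 at 4, 16 and 48 h.

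Among the targets, HES1, the repressor whose promoter is shown above with 2 RBPJ core words, had signals of 10.37 and 10.67 in vehicle, 10.66 and 10.61 at 4 h, 10.23 and 10.36 at 16 h, and 10.28 and 10.34 at 48 h. The later arrays all lay below both vehicle arrays, which themselves differed by more than the later arrays did. The log2 change was 0.12 at 4 h, -0.22 ± 0.11 at 16 h and -0.21 ± 0.11 at 48 h, with limma adjusted p of 0.847, 0.298 and 0.313. The second bright probe set read -0.10, -0.49 and -0.38, also with no call (limma adjusted p = 0.0927 at 16 h over all probe sets). The dimmest, with a mean signal of 7.35 and the only one outside the kind that can match several transcripts, read -0.08, 0.04 and 0.10, so the sign of the HES1 value depends on the probe set. Without DHT 16 h replicate 2 the 16 h value was -0.29 (limma adjusted p = 0.314).

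HEY1, a related repressor, had signals of 7.67 and 7.69 in vehicle, 7.79 and 7.67 at 4 h, 7.87 and 8.08 at 16 h, and 8.02 and 7.94 at 48 h. All later arrays lay above both vehicle arrays. Its log2 change was 0.29 ± 0.10 at 16 h (95% interval 0.07 to 0.51, limma adjusted p = 0.126) and 0.30 ± 0.10 at 48 h (limma adjusted p = 0.101). Its second probe set read 0.20 and 0.03 at these times. Without DHT 16 h replicate 2 the 16 h value was 0.18 (limma adjusted p = 0.476). HEY1 was called in 0 of the 17 alternative fits at 16 h and at 48 h, by limma in each.

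HEY2, whose window also holds 2 core words, had signals of 7.25 and 7.36 in vehicle, 7.37 and 7.51 at 4 h, 7.43 and 7.32 at 16 h, and 7.34 and 7.23 at 48 h. Its log2 changes were 0.13, 0.07 and -0.02 at 4, 16 and 48 h, and its dimmer probe set stayed between 6.13 and 6.25. The groups of arrays overlapped at 16 and 48 h, and without DHT 16 h replicate 2 the 16 h value was 0.13 with no call. At 16 h the 2 arrays of DHT and of vehicle did not overlap for 5 of the 10 genes, against 47% of all genes, and at 48 h for 7 of 10, against 51.8%.

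**Figure D3:**
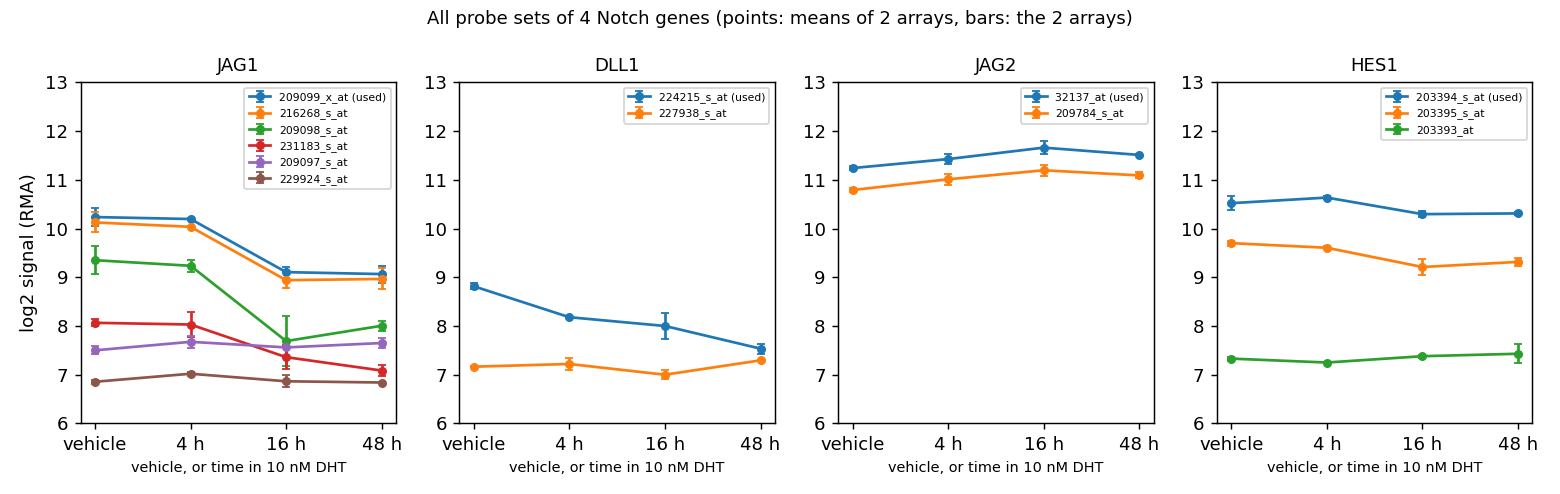
Log2 signal (vertical axis) of every probe set of JAG1, DLL1, JAG2 and HES1 in vehicle and after 4, 16 and 48 h of DHT. Points are means of 2 arrays and bars span the 2 arrays. The 4 brightest JAG1 probe sets are lower at 16 and 48 h, while the 2 dimmest JAG1 ones and the second DLL1 one stay level.

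At 4 h the JAG1 arrays lay within vehicle and the DLL1 arrays below it, with no call for either, and the difference between the 2 genes was not tested. Over the 8 arrays the Pearson correlation of JAG1 and DLL1 was 0.81, a description over arrays that share treatment groups. The genes most like JAG1 over the 8 arrays were PDLIM5 (r = 0.993), CBFB (r = 0.990) and LSM6 (r = 0.989). PDLIM5 had log2 changes of -0.11, -1.70 and -1.82 at 4, 16 and 48 h. The most opposite were STAT6 (r = -0.991), FAM162A (r = -0.986) and NDRG1 (r = -0.981), and NDRG1 stood at 0.31, 2.78 and 2.78. For DLL1 the most like were TRIP4 (r = 0.986), LFNG (r = 0.985) and TNRC6C (r = 0.983), and the most opposite were TMEM45B (r = -0.989), RAB11FIP1 (r = -0.988) and TSKU (r = -0.980).

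The rest of the pathway was read through 55 listed genes, of which 53 were measured: other ligands, NOTCH4, the enzymes that cut the receptor, those that add sugars to it, proteins of its trafficking and turnover, the nuclear complex with its corepressors, and further targets. At 4 h limma called 0 of 53, against 0.177% of all genes, and 4 of 53 had an unadjusted p below 0.05, against 7.84% of all genes. At 16 h 2 rose and 1 fell (5.66% called, against 6.85% of all genes), and at 48 h 1 rose and 3 fell (7.55% called, against 9.51%). Of all genes 2.55% rose at 16 h and 3.13% at 48 h. These shares of calls lie near the background, and the median log2 change was 0.03 at each time. Of the nuclear complex and corepressor genes, 8 of 15 had an unadjusted limma p below 0.05 at 48 h, against 22% of all genes. Of the 15, 11 were lower and 4 higher, with a median of -0.23, and 1 was called (6.67%, against 9.51% of all genes). At 4 and 16 h 0 and 3 of these 15 had such a p, against 7.84% and 19.9%. Of the 5 genes that add sugars to the receptor, 3 had such a p at 16 h (60%, against 19.9%), with 0 called. Both groups are small and were not tested as sets. The 5 other ligands, NOTCH4 and the 8 cutting enzymes held 0 calls by limma at 4, 16 or 48 h, with 0, 0 and 2 at an unadjusted p below 0.05, the 2 among the cutting enzymes, against 7.84%, 19.9% and 22% of all genes.

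NRARP, a Notch target gene whose ankyrin-repeat product feeds back on the Notch nuclear complex, rose. Its signal was 10.45 and 10.63 in vehicle, 11.15 and 11.15 at 4 h, 11.49 and 11.62 at 16 h, and 10.84 and 11.13 at 48 h. All 6 DHT arrays lay above both vehicle arrays, with the highest values at 16 h. The gene was 2.02-fold higher at 16 h than in vehicle (log2 change 1.02 ± 0.11, limma adjusted p = 0.000303) and 1.36-fold higher at 48 h (0.44 ± 0.11, limma adjusted p = 0.032), and had 0.61 at 4 h with no call (limma adjusted p = 0.0726). From 16 to 48 h it fell by 0.57 (limma adjusted p = 0.0451). The 16 h call held in all 17 alternative fits, with 0.95 without DHT 16 h replicate 2, and the 48 h call held in 11, lost among others without vehicle replicate 1 (0.36, limma adjusted p = 0.241), DHT 48 h replicate 2 (0.30, limma adjusted p = 0.203) or either 4 h array (0.44, limma adjusted p = 0.0571).

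LFNG, a Fringe enzyme that extends sugars on Notch receptors and alters their response to ligands, had signals of 9.69 and 9.77 in vehicle, 9.42 and 9.40 at 4 h, 9.22 and 9.46 at 16 h, and 9.02 and 9.18 at 48 h. All DHT arrays lay below both vehicle arrays, the order also seen for DLL1. It fell 1.55-fold at 48 h (log2 change -0.63 ± 0.11, limma adjusted p = 0.00316) and stood at -0.39 at 16 h with no call (limma adjusted p = 0.0519), though without DHT 16 h replicate 2 it was called (-0.52, limma adjusted p = 0.0281). A dimmer probe set read 0.13 at 48 h, and the mean of both gave -0.25 with no call (limma adjusted p = 0.0876).

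FBXW7, which marks the Notch inner domain, MYC and cyclin E for breakdown, had signals of 10.91 and 11.02 in vehicle, 10.43 and 10.39 at 4 h, 10.58 and 10.22 at 16 h, and 10.96 and 10.84 at 48 h. All 4 arrays at 4 and 16 h lay below both vehicle arrays, and the 48 h arrays overlapped vehicle. The log2 change was -0.55 at 4 h with no call, -0.56 ± 0.12 at 16 h (limma adjusted p = 0.0152) and -0.06 at 48 h. The other 2 bright probe sets read -0.60 and -0.46 at 16 h, and a dim one, with a mean signal of 5.28, read 0.01. The 16 h call held in 12 of 17 alternative fits and was lost without either vehicle array, at limma adjusted p of 0.0633 and 0.0878, and without DHT 16 h replicate 2 (-0.39, limma adjusted p = 0.0918).

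TLE3, a Groucho-family corepressor, had signals of 9.81 and 9.74 in vehicle, 9.96 and 9.93 at 4 h, 10.46 and 10.35 at 16 h, and 10.07 and 10.02 at 48 h. It rose 1.54-fold at 16 h (log2 change 0.63 ± 0.09, limma adjusted p = 0.00166), a call held in all 17 alternative fits (0.68 without DHT 16 h replicate 2), and had 0.27 at 48 h with no call. Its other 3 probe sets read 0.72, 0.31 and 0.57 at 16 h.

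DTX3L, a ubiquitin ligase of the Deltex family, fell 1.80-fold at 48 h to 7.69 and 7.90, against 8.76 and 8.53 in vehicle (log2 change -0.85 ± 0.17, limma adjusted p = 0.00967). Its 16 h arrays, at 8.05 and 8.70, lay far apart. The 16 h value of -0.27 was not called (limma adjusted p = 0.443), and it was -0.59 without DHT 16 h replicate 2 (limma adjusted p = 0.0291) and 0.05 without DHT 16 h replicate 1 (limma adjusted p = 0.889). CREBBP, a histone acetyltransferase recruited by the Notch nuclear complex among many others, fell 1.39-fold at 48 h to 9.65 and 9.83, against 10.22 and 10.20 in vehicle (log2 change -0.47 ± 0.10, limma adjusted p = 0.0115). Its other 3 probe sets read -0.30, -0.02 and -0.05, and the mean of all 4 gave -0.21 with no call (limma adjusted p = 0.125). At 16 h CREBBP stood at -0.27, and at -0.36 without DHT 16 h replicate 2, with no call in either fit. Without vehicle replicate 1 or without DHT 48 h replicate 1 both 48 h calls were lost, at limma adjusted p of 0.0995 and 0.119 for DTX3L and 0.0821 and 0.128 for CREBBP.

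**Figure D4:**
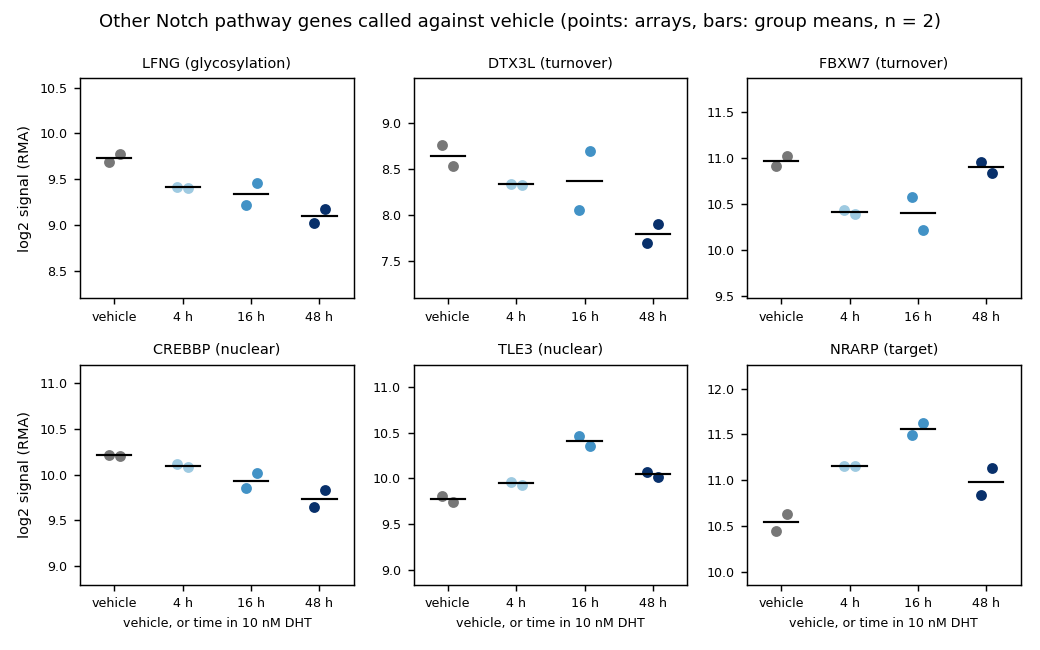
Log2 signal (vertical axis) of the 6 further pathway genes called against vehicle at any time, by array in vehicle and after 4, 16 and 48 h of DHT. Points are arrays and bars are group means (n = 2). NRARP and TLE3 are highest at 16 h, LFNG and CREBBP are lowest at 48 h, and FBXW7 at 48 h overlaps vehicle.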

How the data were processed

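The deposited table held log2 signals of 54675 probe sets on 8 arrays, normalised by the authors with RMA per the submitters' processing notes (version not given in the sources used here). The signals ran from 3.68 to 15.57, and no further normalisation was applied. Symbols came from the platform annotation. The 62 control probe sets and those with several symbols (1801) or none (11721) were set aside, leaving 41091 and 19775 genes. The 4 group means were fitted to all 8 arrays with limma 3.58.1 (R 4.3.3), with 7.21 prior and 4 residual degrees of freedom, two-sided, and Benjamini-Hochberg adjustment over all genes. The code was tested on simulated data. An exact permutation test of 2 arrays against 2 cannot go below 0.333, so none was run. The number of arrays limits the precision.

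The genes and lists were chosen with earlier results of these data known. All 10 genes are named, each other pathway gene called against vehicle, and the 3 genes with the highest and the 3 with the lowest correlation to the 2 called genes with the largest change. The alternatives were a filter on dim genes, 3 other ways to read probe sets, 2 normalisations, a variance trend, 2 groups alone, a replicate block and leaving out each array.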

Additional observations from a re-analysis of the deposited data

Results flagged for a closer look

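JAG1 is listed because its level differed between 2 times of DHT: the log2 change at 16 h against 4 h was -1.09 (limma adjusted p = 0.0018), lower in 2 of 2 arrays than both 4 h arrays, and -1.2 without DHT 16 h replicate 2. TLE3 differed in the same comparison, at 0.45 (limma adjusted p = 0.0204), a call held in 12 of 17 alternative fits, at 0.51 without DHT 16 h replicate 2. It was lost without either 4 h array (limma adjusted p = 0.147 and 0.154) and without DHT 16 h replicate 1 (limma adjusted p = 0.0577). NRARP differed between 48 and 16 h, at -0.57 (limma adjusted p = 0.0451), and this call held in 6 of 17 alternative fits, with limma adjusted p up to 0.346. Of the arrays left out in turn, DHT 16 h replicate 1 was the only one without which the NRARP call held. Groups of 2 arrays are too small for a check on single outlying arrays.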

How the results depend on the processing

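Over the 17 alternative fits, the values of the 10 genes in the 5 comparisons gave 850 results, of which 839 kept their side of the threshold, 10 gained a call (7 for JAG2 at 16 h and 3 for DLL1) and 1 lost it (DLL1 at 16 h). None of these changed sign with a call on either side. Without DHT 16 h replicate 1 or 2, DLL1 at 4 h was called (limma adjusted p = 0.0354), and without replicate 1 also at 48 h against 16 h (-0.73, limma adjusted p = 0.012). The calls of the 10 genes ranged over fits without 1 array from 0 to 1 at 4 h, 1 to 3 at 16 h, 2 to 2 at 48 h, 1 to 1 for 16 h against 4 h and 0 to 1 for 48 h against 16 h. For the other pathway genes (0, 3 and 4 called) they ranged from 0 to 1, 2 to 9 and 1 to 7. With quantile normalisation, housekeeping shift or a variance trend 1 was called at 4 h, and with the trend 5 at 16 h. Over all genes, 35, 1354 and 1881 were called against vehicle, 604 between 16 and 4 h and 164 between 48 and 16 h, and without 1 array 5 to 60, 517 to 1654, 834 to 2211, 171 to 1107 and 37 to 644. Fitting all probe sets together gave 8, 719, 1135, 237 and 52 of these genes. Probe sets outside the _x_at and _s_at kinds gave 23 at 4 h, and the variance trend 59. That alternative read another probe set for 2 of the 10 genes (HES1 and HEY2) and for 0 of the 6 named pathway genes, so it tests no probe set of the others. With only the 4 arrays compared the counts were 798 at 16 h, 302 for 16 h against 4 h and 63 for 48 h against 16 h, with fewer samples in the fit. The replicate block called 0, 3 and 2 of the 10 genes at 4, 16 and 48 h, JAG2 being the third, and 25, 1261 and 1729 of all genes. Deviations of arrays with the same replicate number correlated at r from -0.24 to 0.20 between groups. With 2 arrays per group these values cannot show whether such arrays shared a day or batch, and the labels do not say. Equal housekeeping signal shifted the median of all genes by at most 0.06. The causes were not tested. Dim signals limit MAML2, HEY2 and the second DLL1 probe set. HEY1 (mean signal 7.84) and the DLL1 probe set used (8.13, and 7.53 at 48 h) also lay within 5.7 to 9.42. That is the range of the basal, mesenchymal, immune and endothelial markers. NOTCH1 (9.05) and JAG1 at 16 and 48 h (9.11 and 9.07) lay in its upper part.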
